A study of Mus musculus with 20 samples.

Results

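The enzymes that build cholesterol, the proteins that switch their genes on and a pair of sterol carriers were followed in the liver of mice after bypass surgery of the Roux-en-Y type (RYGB) or a sham operation. The 28 genes were taken by symbol from the 54532 genes of the count table. All 28 reached 2 CPM (counts scaled to the library size) in all 20 mice and so were among the 12289 genes kept for testing, which needed 2 CPM in 3 mice or more. They are 20 synthesis genes, 6 control genes and 2 sterol movement genes, and they are not every gene of the pathway. Male C57BL/6 mice all received high-fat diet (HFD) during 12 weeks, were operated on, and then ate either chow or HFD during 8 more weeks. Each of the 4 groups, named Sham or RYGB for the operation and Chow or HFD for the later diet, held 5 mice with 1 liver RNA library per mouse. Sham Chow and RYGB Chow mice had therefore also been fed HFD before surgery, and no group without earlier HFD was compared. Sham HFD mice remained obese in the study while the other groups were lean, so body weight and group cannot be told apart in comparisons with Sham HFD. No mouse carried an engineered allele according to the labels.

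Liver cells make cholesterol from acetyl-CoA. The first steps lead through mevalonate to farnesyl diphosphate, squalene is then formed and closed into lanosterol, and a series of demethylations, reductions and double-bond shifts gives cholesterol. The transcription factor SREBP2, encoded by *Srebf2*, is held in the endoplasmic reticulum by the escort protein SCAP and the INSIG proteins while sterols are plentiful. When sterols fall, SCAP carries SREBP2 to the Golgi, where the proteases encoded by *Mbtps1* and *Mbtps2* release its active part, which switches on most genes of the pathway. Messenger RNA levels do not measure that cleavage.

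SREBP proteins bind sterol regulatory elements near the start of such genes, commonly beside a CCAAT box. Promoter windows from 250 bases before to 50 bases after the start (RefSeq, GRCm38.p6) were at hand for 24 of the 28 genes and were searched on both strands, without regard to overlap between motifs. The letters TCACNCCAC stood in the window of 1 of the 24 genes (4.17%), *Hmgcs1*, where TCACCCCAC began 137 bases before the start on the gene's strand, and in 1.44% of all 27025 genes with a window. CCAAT was found for 20 of the 24 genes (83.3%) and 41.1% of all genes, GGGCGG for 21 (87.5%) and 38.2%, and CACGTG for 5 (20.8%) and 8.09%. The shares are descriptions of letters, not of bound sites. The windows below are those of *Hmgcs1*, which held the sterol element letters, of *Srebf2*, the gene of the factor itself, and of *Cyp51* and *Idi1*, whose differences were among the clearest and which were picked for printing after their values were seen. They lie at chr13:119690101-119690400 (plus strand), chr15:82147019-82147318 (plus strand), chr5:4104648-4104947 (minus strand) and chr13:8885356-8885655 (plus strand). Capitals mark TCACNCCAC in *Hmgcs1* and, in all 4, CCAAT or its reverse complement ATTGG.
Hmgcs1: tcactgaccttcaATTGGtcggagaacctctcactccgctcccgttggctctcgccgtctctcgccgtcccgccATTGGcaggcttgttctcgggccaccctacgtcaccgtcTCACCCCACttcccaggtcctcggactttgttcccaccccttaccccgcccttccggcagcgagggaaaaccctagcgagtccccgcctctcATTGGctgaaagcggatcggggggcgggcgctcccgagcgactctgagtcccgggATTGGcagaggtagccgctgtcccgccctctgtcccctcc
Srebf2: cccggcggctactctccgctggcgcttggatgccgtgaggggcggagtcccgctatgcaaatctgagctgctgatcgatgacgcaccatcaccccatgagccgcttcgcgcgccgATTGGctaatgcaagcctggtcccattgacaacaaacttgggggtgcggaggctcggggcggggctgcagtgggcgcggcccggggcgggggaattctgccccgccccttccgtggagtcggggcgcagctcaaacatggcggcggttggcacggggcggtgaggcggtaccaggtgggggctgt
Cyp51: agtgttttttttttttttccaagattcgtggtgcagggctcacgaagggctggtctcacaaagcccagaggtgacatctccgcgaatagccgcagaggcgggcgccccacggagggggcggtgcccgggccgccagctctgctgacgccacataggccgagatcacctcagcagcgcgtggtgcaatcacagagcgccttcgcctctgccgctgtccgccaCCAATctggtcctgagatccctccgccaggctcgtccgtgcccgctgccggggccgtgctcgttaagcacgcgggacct
Idi1: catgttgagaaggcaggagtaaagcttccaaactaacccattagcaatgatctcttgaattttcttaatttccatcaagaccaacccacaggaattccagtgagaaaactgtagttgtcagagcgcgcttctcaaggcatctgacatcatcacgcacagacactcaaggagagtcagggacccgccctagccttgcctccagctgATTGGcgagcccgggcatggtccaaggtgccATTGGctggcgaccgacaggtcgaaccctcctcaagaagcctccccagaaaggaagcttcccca

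Between 14604854 and 22537498 reads per mouse were counted. The 28 genes together took a median of 0.36% of the counts in RYGB HFD, 0.272% in Sham HFD, 0.292% in RYGB Chow and 0.286% in Sham Chow. A few mice stood apart within their group. Sham HFD replicate 5 had the highest level of its group for 24 of the 28 genes, RYGB HFD replicate 1 for 20 and Sham Chow replicate 4 for 18, while Sham HFD replicate 1 had the lowest for 18 and RYGB Chow replicate 3 for 16. RYGB Chow replicate 3 also had the lowest summed level of 8 hepatocyte markers in its group (72095 CPM against 84467 to 120395 in the other 4 mice) and the highest sum of 8 Kupffer cell and macrophage markers (478 CPM). The counts are therefore also given below without some single mice, and their ranges over all mice left out in turn are given near the end.

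The summed hepatocyte markers also moved with diet and surgery. They lay at 96247 to 114993 CPM in RYGB HFD, 68464 to 81053 in Sham HFD, 72095 to 120395 in RYGB Chow and 80117 to 100282 in Sham Chow, with all 8 markers above 0 in every mouse. In Sham HFD vs. RYGB HFD, 5 of the 8 rose (*Alb*, *Apoa1*, *Serpina1a*, *Cps1*, *Hnf4a*) and *Ttr* fell, and in Sham Chow vs. Sham HFD 4 fell. In the surgery by diet interaction 3 of the 8 were higher, and in the other comparisons 0 passed. For all marker calls in this paragraph, the shares of all tested genes were 8.54% higher and 7.9% lower in Sham HFD vs. RYGB HFD. They were 10.9% and 10.7% in Sham Chow vs. Sham HFD, and 2.48% and 2.58% in the interaction. Of 6 stellate cell markers, 6 rose in Sham Chow vs. Sham HFD, 4 fell in Sham HFD vs. RYGB HFD, and 3 (*Dcn*, *Col1a1*, *Col3a1*) were lower in the interaction, with a median of -0.76. Their summed level was 298 to 346 CPM in Sham HFD, 192 to 291 in RYGB HFD, 189 to 243 in RYGB Chow and 135 to 224 in Sham Chow. Of 8 Kupffer cell and macrophage markers, 5 rose in Sham Chow vs. Sham HFD, with sums of 227 to 311 CPM in Sham HFD, 207 to 363 in RYGB HFD, 194 to 478 in RYGB Chow and 95.5 to 254 in Sham Chow. Of the 5 endothelial and 5 red cell markers, 0 passed in any comparison. Of 2 tested cholangiocyte and 2 tested lymphocyte markers, *Spp1* rose in Sham Chow vs. Sham HFD and *Cd79b* fell in Sham HFD vs. RYGB HFD, and the lymphocyte markers *Cd3g* and *Cd79a* were at 0 in some mice. The part of these markers in the results below was not tested. In bulk liver, fewer cells of a type and less RNA per cell cannot be told apart.

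Per kilobase of exon, levels ran from *Sc5d*, a desaturase of the last steps (101 ± 20.7 CPM per kb, mean ± SD over 20 mice), down to *Mbtps2*, the second SREBP protease (1.09 ± 0.176). After *Sc5d* came the sterol isomerase *Ebp* (84.6 ± 13.8), *Insig2* (75.8 ± 24.1) and *Insig1* (71 ± 18.7), which lay within their spread of each other. *Fdps*, the farnesyl diphosphate synthase, was next to last at 1.74 ± 1.02 CPM per kb. It shares 1124 of its 4208 exon bases with *Gm43738* on the same strand, for which 0 reads were counted, so its level is uncertain. *Tm7sf2* (532 bases shared with *Vps51*) and *Mbtps2* (2867 with *Yy2*) also overlap a gene on the same strand. *Fdft1* shares 774 bases with *Ctsb* on the opposite strand, and *Scap*, *Hmgcs1*, *Lbr*, *Lss*, *Idi1*, *Ggps1* and *Cyp51* share between 166 and 985 with opposite-strand genes. The strand setting of the counting was not given in the sources used here.

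RYGB HFD had the highest group mean for 19 of the 28 genes and the lowest for 0. Sham HFD had the lowest mean for 15 and RYGB Chow for 10. The heat map of the genes in each mouse shows this along with the mice that stood apart.

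**Figure D1:**
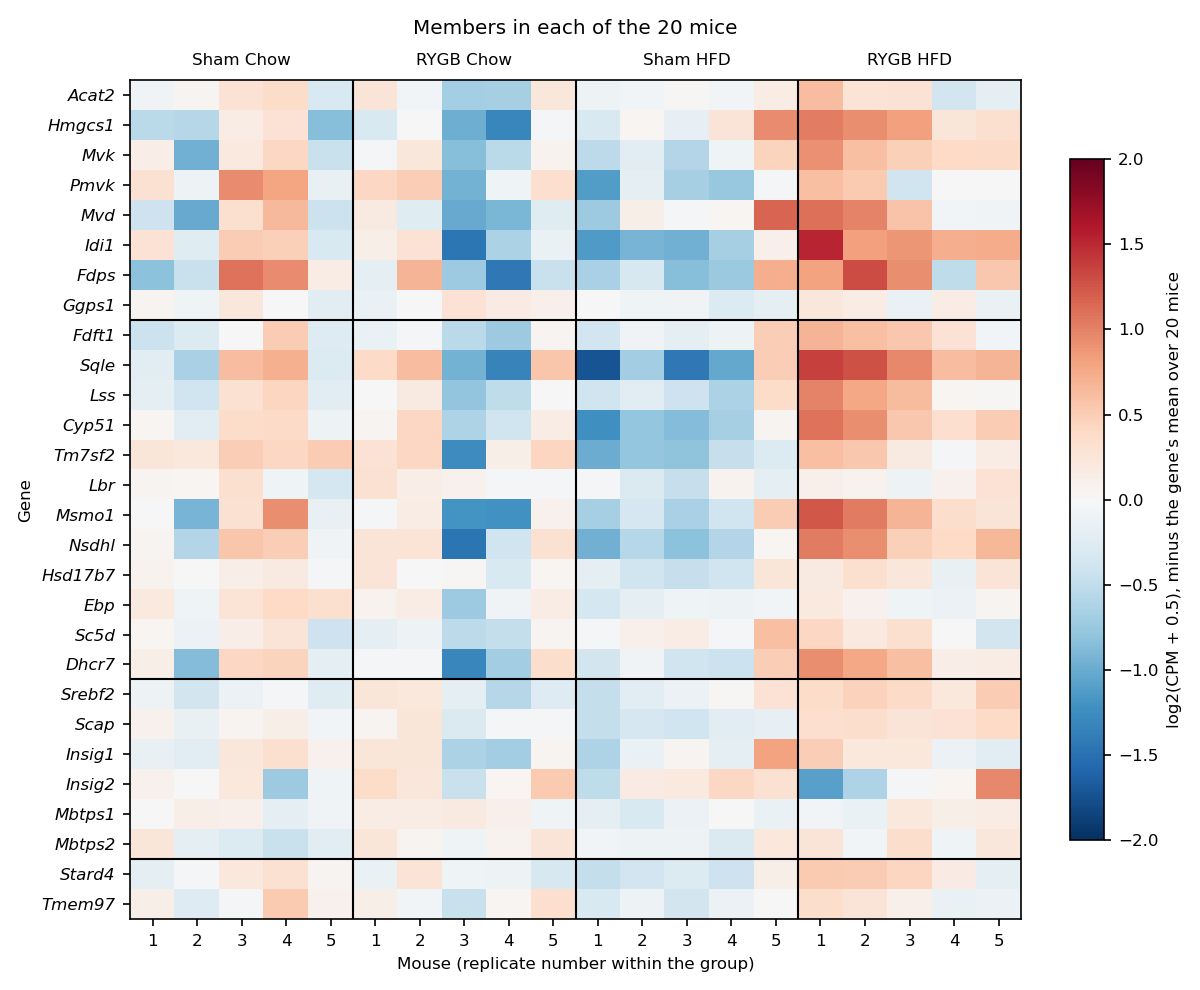
Each row is a gene and each column a mouse, with log2(CPM + 0.5) minus the gene's mean over 20 mice in color. RYGB HFD columns are mostly red, Sham HFD columns are mostly blue except replicate 5, and RYGB Chow replicates 3 and 4 are mostly blue.

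Log2 fold changes below are of the second group over the first named, from edgeR's quasi-likelihood model of all 20 mice, and a gene was called at a Benjamini-Hochberg adjusted p under 0.05 over the 12289 genes tested. The standard errors given were back-calculated, as the absolute log2 fold change divided by the square root of the test's F statistic. In Sham HFD vs. RYGB HFD, which asks what surgery changes under the fatty diet, 12 of the 28 genes rose and 0 fell, where 8.54% of all tested genes rose and 7.9% fell. The 12 were *Mvk* and *Idi1* of the mevalonate steps, *Sqle*, *Lss*, *Cyp51*, *Tm7sf2*, *Msmo1*, *Nsdhl* and *Hsd17b7* of the sterol steps, *Srebf2* and *Scap* of the control genes, and the sterol carrier *Stard4*. The median log2 fold change over the 28 genes was 0.47 (all tested genes 0.01), and the value was above 0 for 26. The groups did not overlap for 6 of the 28, with RYGB HFD higher, against 7.25% of all tested genes. The count fell to 7 without Sham HFD replicate 1 or 3 and was 15 without Sham HFD replicate 5. Over all tested genes, 1050 rose with all mice, and 921, 745 and 836 without Sham HFD replicate 1, 3 and 5. The count was 8 without Sham HFD replicate 2 or 4 or RYGB HFD replicate 1 or 2. In these 4 fits 876, 872, 1013 and 831 of all tested genes rose, in that order.

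In Sham Chow vs. Sham HFD, the diet comparison without bypass, 0 of the 28 genes rose and 6 fell, where 10.9% of all tested genes rose and 10.7% fell. The 6 were *Pmvk* and *Idi1*, the sterol enzymes *Cyp51*, *Tm7sf2* and *Ebp*, and *Scap*. The median was -0.22 (all tested genes -0.00). The groups did not overlap for 2 genes, *Tm7sf2* and *Scap*, with Sham HFD lower, against 8.06% of all tested genes. This comparison shares the Sham HFD mice with the one above, so the values of both move together with those 5 mice. The count of 6 became 2 without Sham Chow replicate 3 or Sham HFD replicate 1, 3 without Sham Chow replicate 4 or Sham HFD replicate 4, and 9 without Sham HFD replicate 5. Over all tested genes, 1319 fell with all mice, and 1018 and 1182 without Sham Chow replicate 3 and 4. Without Sham HFD replicate 1, 4 and 5, 1125, 1067 and 1044 of all tested genes fell. Scaled by library size only, 3 fell, where 4.51% of all tested genes did.

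In RYGB Chow vs. RYGB HFD, the diet comparison in bypassed mice, 3 of the 28 genes rose (*Hmgcs1*, *Idi1* and *Scap*) and 0 fell, where 1.99% of all tested genes rose and 1.65% fell. The median was 0.37 (all tested genes 0.00), the value was above 0 for 24 genes, and 16 had an unadjusted p under 0.05, against 18.8% of all tested genes. The groups did not overlap for 7 genes, with RYGB HFD higher, against 2.64% of all tested genes. They were *Hmgcs1*, *Mvk*, *Idi1*, *Sqle*, *Msmo1*, *Nsdhl* and *Scap*. The count of 3 depended on single mice. It was 0 without RYGB HFD replicate 1, 1 without RYGB Chow replicate 3 or 4 or RYGB HFD replicate 2 or 3, 5 without RYGB Chow replicate 2 and 6 without Sham HFD replicate 5. Calls over all tested genes moved in these fits as well, from 245 higher with all mice. They were 143, 170 and 118 without RYGB HFD replicate 1, 2 and 3. Without RYGB Chow replicate 2, 3 and 4 they were 199, 158 and 179, and without Sham HFD replicate 5 they were 226. DESeq2 called 9, which held the same 3 along with *Cyp51*, *Fdft1*, *Lss*, *Msmo1*, *Mvk* and *Srebf2*, where DESeq2 had 3.25% of all tested genes higher and 2.86% lower.

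In Sham Chow vs. RYGB Chow, surgery without the fatty diet, edgeR called 0 of the 28 genes in either direction, where 0.0488% of all tested genes rose and 0.00814% fell. An unadjusted p under 0.05 was reached by 2 genes, *Ebp* (log2 fold change -0.28, standard error 0.13) and *Mbtps2* (0.28, 0.13), against 10.8% of all tested genes. DESeq2 (0.537% of all tested genes higher and 0.212% lower) called 0 of the 28. So did limma-voom, which called only 2 higher and 1 lower among all 12289 tested genes. Values below 0 were found for 22 of the 28 genes, with a median of -0.18 (all tested genes -0.00). The groups overlapped for all 28. The share of all tested genes without overlap was not counted for this comparison, so the overlap cannot be read as particular to these genes.

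Whether the diet difference itself differed between RYGB and sham mice was tested as the surgery by diet interaction, the log2 HFD over chow difference of RYGB mice minus that of sham mice. It was above 0 for 26 of the 28 genes, among them all 20 synthesis genes, with a median of 0.66 (all tested genes 0.02). It passed for 6, all higher, where 2.48% of all tested genes were higher and 2.58% lower. They were *Idi1*, *Cyp51*, *Tm7sf2*, *Nsdhl*, *Scap* and *Stard4*. The count was 3 without Sham Chow replicate 3, Sham HFD replicate 3 or RYGB HFD replicate 2, and 10 without Sham HFD replicate 5. Over all tested genes, 305 were higher with all mice, and 195, 177, 203 and 189 in these 4 fits, in that order. The count was 4 without Sham Chow replicate 4 and 5 without RYGB Chow replicate 3, Sham HFD replicate 1 or RYGB HFD replicate 1. There 229, 246, 280 and 281 of all tested genes were higher, in that order. The 2 genes below 0 were *Insig2* (-0.38, standard error 0.40) and *Mbtps2* (-0.07, 0.19).

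**Figure D2:**
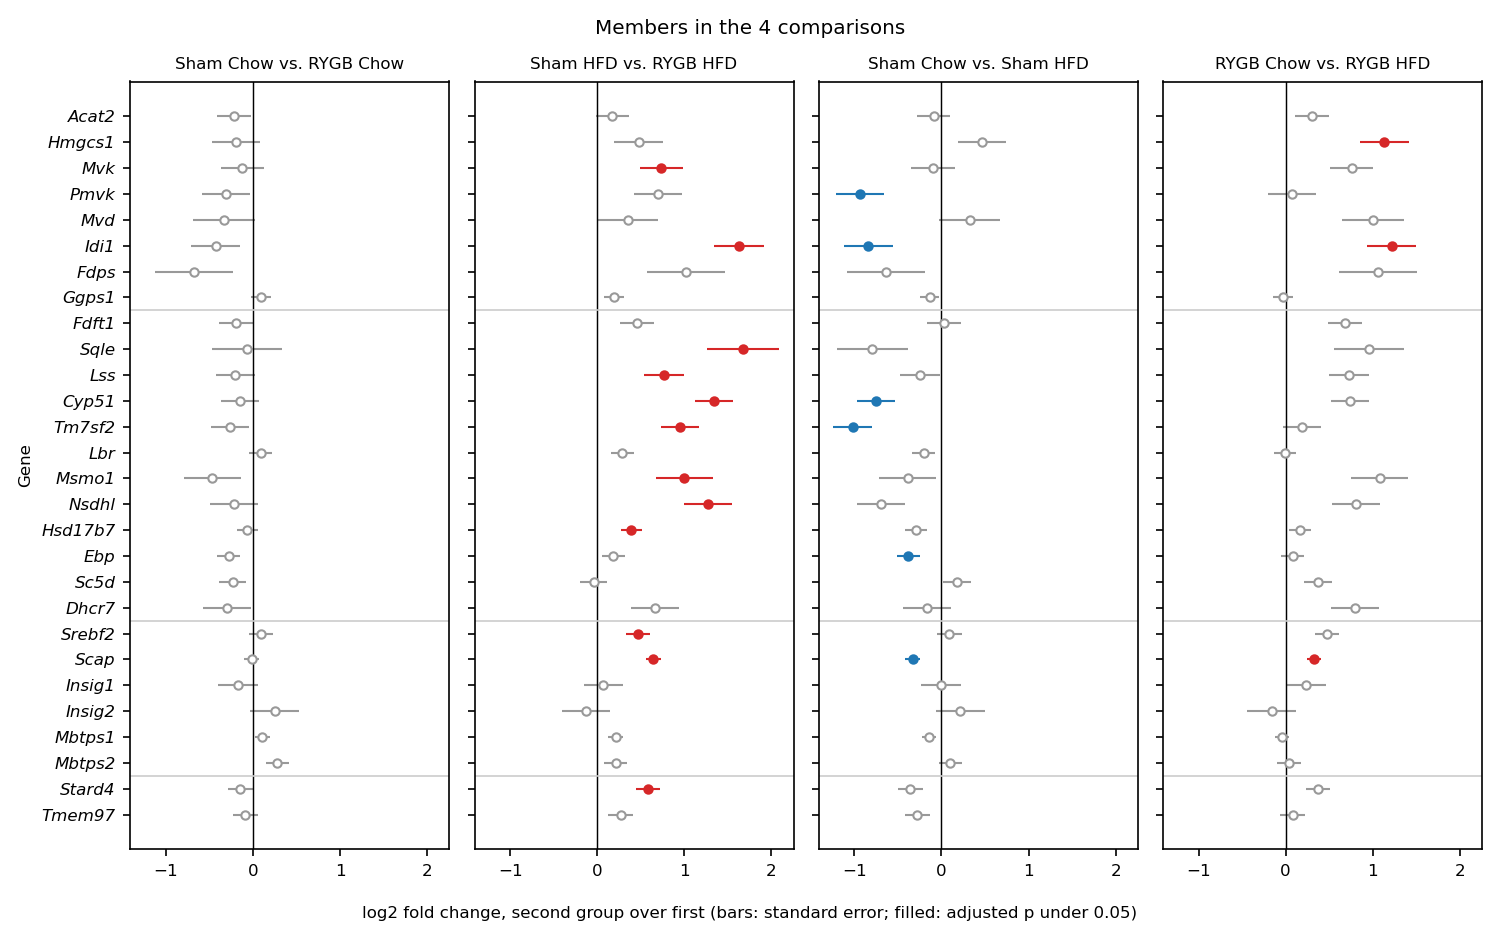
Points are log2 fold changes of the 28 genes (rows, by role) in the 4 comparisons, bars are standard errors, and filled points passed an adjusted p of 0.05. Filled points number 0, 12, 6 and 3 from left to right, lying left of 0 in the third panel and right of it elsewhere.

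Among the mevalonate steps, *Idi1*, the isomerase that balances the isoprenoid building blocks, had the largest interaction. Its level was 84.2, 58.1, 98.1, 96.6 and 55.7 CPM in the Sham Chow mice and 74.7, 84.9, 24.9, 44.4 and 62.9 in RYGB Chow. It was 31.2, 35.9, 35.1, 43.4 and 73.8 in Sham HFD and 200.1, 122, 128, 114 and 116 in RYGB HFD. Every RYGB HFD mouse lay above all 15 other mice, and Sham HFD replicate 5 was the only mouse of its group inside the Sham Chow range. *Idi1* rose in Sham HFD vs. RYGB HFD (log2 fold change 1.63, standard error 0.29, in that order from here on, adjusted p = 5.25e-04) and in RYGB Chow vs. RYGB HFD (1.22, 0.28, adjusted p = 0.0195), and fell in Sham Chow vs. Sham HFD (-0.84, 0.28, adjusted p = 0.0379). The interaction was 2.06 (0.40, adjusted p = 0.00581). The rise over Sham HFD and the interaction passed without any single mouse. The rise over RYGB Chow did not pass without RYGB HFD replicate 1 or in a model of only the 2 groups, and the fall did not when scaled by library size only or without Sham Chow replicate 1, 3 or 4 or Sham HFD replicate 1, 2, 3 or 4 (adjusted p up to 0.0611 and 0.0923 over alternatives and left-out mice).

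*Hmgcs1*, the cytosolic HMG-CoA synthase that feeds the pathway, followed another order of groups. The Sham Chow mice had 136, 133, 220.1, 244 and 109.8 CPM and the RYGB Chow mice 161, 201, 100.5, 80.5 and 195. The Sham HFD mice had 160.1, 205, 178, 238 and 382 and the RYGB HFD mice 406, 377, 351, 235 and 247. Both HFD groups had higher means than both chow groups, and all RYGB HFD mice lay above all RYGB Chow mice, while Sham HFD overlapped with every other group. It rose in RYGB Chow vs. RYGB HFD (1.13, 0.28, adjusted p = 0.0289), a call lost without RYGB Chow replicate 3 or 4 or RYGB HFD replicate 1, 2 or 3 (adjusted p up to 0.0721). In Sham Chow vs. Sham HFD it was 0.46 (0.28, adjusted p = 0.238), and the interaction was 0.67 (0.39, adjusted p = 0.347).

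The other mevalonate genes varied in size of change. *Mvk*, mevalonate kinase, rose to 24.4 ± 4.03 CPM (mean ± SD, n = 5 mice) in RYGB HFD from 14.64 ± 4.66 (n = 5) under Sham HFD (0.73, 0.25, adjusted p = 0.0447), a call that held in only 9 of 20 fits that each left out 1 mouse (adjusted p up to 0.119). Those losing it left out Sham Chow replicate 3, RYGB Chow replicate 1, Sham HFD replicate 1, 2, 3 or 4 or any RYGB HFD mouse, and the call was also lost when scaled by library size only. *Pmvk*, the next kinase, fell from 36.9 ± 12.9 in Sham Chow to 19.2 ± 5.99 in Sham HFD (-0.94, 0.28, adjusted p = 0.0203). That call was lost without Sham Chow replicate 3 or 4 or Sham HFD replicate 1 or 4 (adjusted p up to 0.0694). *Pmvk* in RYGB HFD, at 31.3 ± 8.94, was close to the 29.8 ± 10.1 of RYGB Chow (0.07, 0.27). *Mvd*, the decarboxylase, and *Fdps* passed in 0 comparisons, with RYGB Chow vs. RYGB HFD values of 1.01 (0.36, adjusted p = 0.122) and 1.06 (0.45, adjusted p = 0.205). The thiolase *Acat2*, which has the paralog *Acat3*, and *Ggps1*, the geranylgeranyl diphosphate synthase of a side branch, also passed in 0, and *Ggps1* kept group means between 9.13 and 10.7 CPM.

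Of the sterol steps, *Sqle*, the squalene epoxidase that is a rate-limiting step of the pathway, had the largest log2 fold change of the 28 genes in Sham HFD vs. RYGB HFD. It stood at 36.3, 27, 65.6, 69.8 and 35 CPM in Sham Chow and at 55.8, 65.3, 21.9, 16.5 and 62.7 in RYGB Chow. It stood at 12.5, 26.1, 15.5, 20.5 and 59.6 in Sham HFD and at 110.5, 103, 83.1, 65.4 and 68 in RYGB HFD. RYGB HFD lay above every Sham HFD and RYGB Chow mouse, Sham HFD replicate 5 came near it, and both chow groups held mice at low and high levels. The margin over RYGB Chow was very narrow, with 65.36 CPM in RYGB HFD replicate 4 and 65.33 in RYGB Chow replicate 2. RYGB Chow vs. RYGB HFD was not called (0.96, 0.40, adjusted p = 0.202). *Sqle* rose in that comparison (1.68, 0.41, adjusted p = 0.00753), and did so without any single mouse, with 2.20 as the largest value. Its interaction was 1.75 (0.57, adjusted p = 0.0827) and passed without Sham HFD replicate 5.

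*Cyp51*, the lanosterol demethylase, had the smallest p-value of the synthesis and sterol movement genes. The Sham Chow mice had 152, 127, 191, 193 and 138 CPM and the RYGB Chow mice 153, 197, 96.2, 112 and 165. The Sham HFD mice had 62.9, 86.4, 81, 93.5 and 153 and the RYGB HFD mice 314, 281, 214, 187 and 209. RYGB HFD lay above Sham HFD without overlap, and 4 of 5 Sham HFD mice lay below every chow mouse. It rose in Sham HFD vs. RYGB HFD (1.34, 0.22, adjusted p = 2.97e-04). It fell in Sham Chow vs. Sham HFD (-0.75, 0.22, adjusted p = 0.0185), a call lost without Sham Chow replicate 3 or Sham HFD replicate 1 (adjusted p up to 0.0521). The interaction was 1.48 (0.31, adjusted p = 0.00804) and passed without any single mouse.

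*Tm7sf2* is a sterol reductase that acts after *Cyp51*. Levels were 142, 139, 169.6, 160.5 and 170.1 CPM in Sham Chow and 148, 161, 49.8, 131 and 162 in RYGB Chow. They were 60.4, 69.8, 68.6, 87.3 and 98.9 in Sham HFD and 182, 175, 136, 117 and 134 in RYGB HFD. All Sham HFD mice lay below all mice of the other groups except RYGB Chow replicate 3. *Tm7sf2* fell in Sham Chow vs. Sham HFD (-1.02, 0.22, adjusted p = 0.00281) and rose in Sham HFD vs. RYGB HFD (0.95, 0.22, adjusted p = 0.00509). Both calls held without any single mouse. RYGB Chow vs. RYGB HFD gave 0.19 (0.22, adjusted p = 0.703). The interaction of 1.21 (0.31, adjusted p = 0.0277) did not pass without Sham Chow replicate 3 or 5, Sham HFD replicate 2 or 3 or RYGB HFD replicate 2 (adjusted p up to 0.0573). *Lbr*, the other reductase of that step, had group means between 8.49 and 10.4 CPM and passed in 0 comparisons.

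*Nsdhl*, a dehydrogenase of the demethylation that follows, stood at 59.8, 38, 84.5, 80.8 and 54.4 CPM in Sham Chow and 68.4, 69.5, 20.5, 43.3 and 71 in RYGB Chow. It stood at 29.2, 38.4, 32.2, 38.1 and 58.7 in Sham HFD and 119, 109.5, 80.4, 75.7 and 91.3 in RYGB HFD. RYGB HFD lay above Sham HFD and RYGB Chow without overlap. It rose in Sham HFD vs. RYGB HFD (1.27, 0.28, adjusted p = 0.00305), also without any single mouse, and its interaction was 1.49 (0.39, adjusted p = 0.0293), lost without Sham Chow replicate 3 or 4, RYGB Chow replicate 4, Sham HFD replicate 3 or RYGB HFD replicate 2 (adjusted p up to 0.0624). *Msmo1*, the oxidase of the same demethylation, rose from 119 ± 46.1 CPM to 239 ± 70.6 (1.00, 0.33, adjusted p = 0.0403), and *Hsd17b7*, its last reductase, from 73 ± 16.3 to 95.9 ± 11.4 (0.39, 0.12, adjusted p = 0.0322). *Msmo1* was called in 13 and *Hsd17b7* in 12 of 20 fits without a mouse. Both were lost without Sham HFD replicate 1, 2, 3 or 4 or RYGB HFD replicate 1, 2 or 3, and *Hsd17b7* also without RYGB HFD replicate 5, scaled by library size only and in a model of only the 2 groups (adjusted p up to 0.1 and 0.106).

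*Fdft1*, squalene synthase, stood at 79, 87.5, 107, 152 and 88.6 CPM in Sham Chow and 96.5, 104, 72.6, 64.1 and 111 in RYGB Chow. It stood at 81.1, 101, 92.7, 99.4 and 149.9 in Sham HFD and 171, 162, 155, 130.2 and 102 in RYGB HFD. RYGB HFD replicates 1, 2 and 3 were the highest of all mice, and replicates 4 and 5 lay within the ranges of both Sham groups. It passed in 0 comparisons, with 0.68 (0.20, adjusted p = 0.0555) in RYGB Chow vs. RYGB HFD. *Lss*, lanosterol synthase, rose to 65.7 ± 19.6 in RYGB HFD from 38.6 ± 11.5 under Sham HFD (0.76, 0.23, adjusted p = 0.0254), a call lost without Sham HFD replicate 1, 3 or 4 or RYGB HFD replicate 1 or 2 (adjusted p up to 0.0751).

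The last steps are those of *Ebp*, *Sc5d* and *Dhcr7*. *Ebp* fell in Sham Chow vs. Sham HFD from 226 ± 27.8 to 173 ± 14.4 CPM (-0.38, 0.13, adjusted p = 0.0408), a call lost without Sham Chow replicate 1, 3, 4 or 5 or any Sham HFD mouse, scaled by library size only or with a filter of 5 CPM (adjusted p up to 0.101). *Sc5d* passed in 0 comparisons and had group means between 410.1 and 545 CPM, with a Sham HFD vs. RYGB HFD value of -0.04 (0.16). *Dhcr7*, the reductase of the last step, also passed in 0, with a Sham HFD vs. RYGB HFD value of 0.66 (0.28, adjusted p = 0.109) beside 0.79 (0.28, adjusted p = 0.119) in RYGB Chow vs. RYGB HFD. The interaction of *Dhcr7* was 0.96 (0.39, adjusted p = 0.164).

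**Figure D3:**
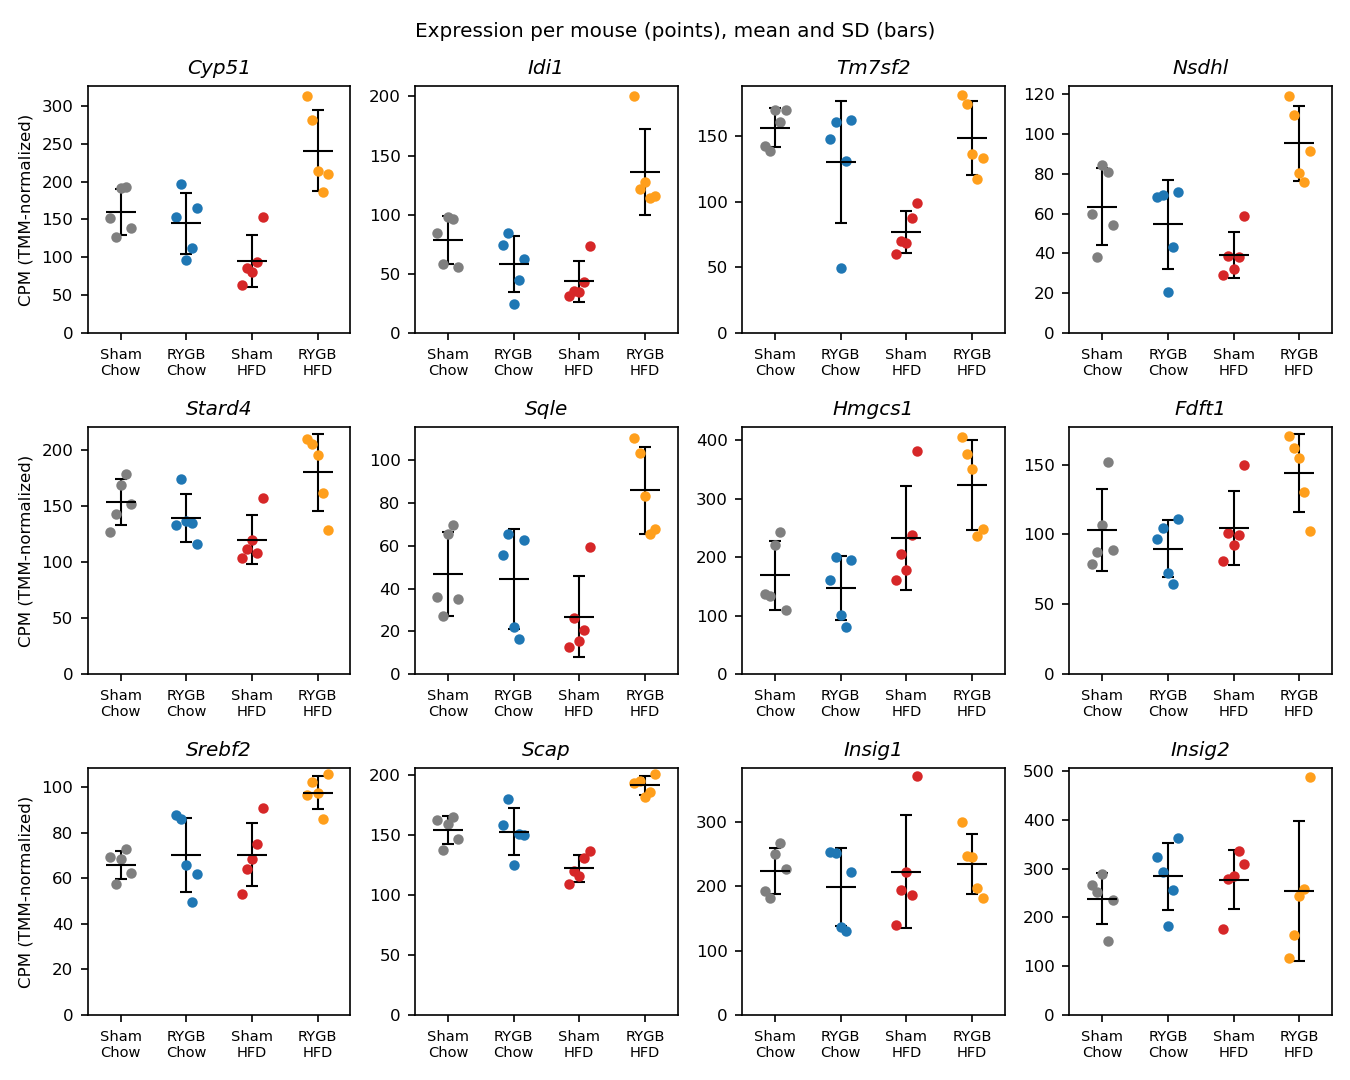
CPM per mouse (points) with mean and SD (bars) for 8 synthesis and sterol movement genes and 4 control genes, in the 4 groups. *Idi1*, *Cyp51*, *Nsdhl* and *Scap* show RYGB HFD above Sham HFD without overlap, *Hmgcs1* and *Fdft1* overlap there, and *Insig1* and *Insig2* overlap in all groups.

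Among the control genes, *Scap* had the smallest p-value. It stood at 162, 137, 159, 165 and 147 CPM in Sham Chow and 158, 179.9, 125, 151 and 149.9 in RYGB Chow. It stood at 109, 120.3, 116, 131 and 137 in Sham HFD and 193, 195, 182, 186 and 201 in RYGB HFD. Every RYGB HFD mouse lay above all 15 others, and every Sham HFD mouse lay below every Sham Chow mouse, if narrowly. *Scap* rose in Sham HFD vs. RYGB HFD (0.64, 0.09, adjusted p = 3.86e-05), fell in Sham Chow vs. Sham HFD (-0.33, 0.09, adjusted p = 0.0094) and rose in RYGB Chow vs. RYGB HFD (0.33, 0.09, adjusted p = 0.0362), with an interaction of 0.66 (0.12, adjusted p = 0.00388). All but the third passed without any single mouse. The third was called in 11 of 20 such fits, lost without RYGB Chow replicate 1, 3, 4 or 5 or any RYGB HFD mouse, and was also lost with no filter and in a model of only the 2 groups (adjusted p up to 0.11). Scaled by library size only, the fall in Sham Chow vs. Sham HFD did not pass (adjusted p = 0.0648). Groups without overlap give an exact permutation p (two-sided) of 0.00794, the smallest that 5 mice against 5 allow.

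*Srebf2* stood at 69.3, 57.3, 68.3, 72.7 and 62.4 CPM in Sham Chow and 87.6, 85.9, 65.7, 49.6 and 62 in RYGB Chow. It stood at 53.2, 64.1, 68.3, 75.2 and 90.8 in Sham HFD and 96.3, 102, 97.3, 86.2 and 106 in RYGB HFD. Sham Chow had the narrowest range, inside those of RYGB Chow and Sham HFD, and RYGB HFD lay above all 15 other mice except for replicate 4. It rose in Sham HFD vs. RYGB HFD (0.47, 0.14, adjusted p = 0.024), a call lost without Sham HFD replicate 1, 2 or 3 or RYGB HFD replicate 2 or 5 and when scaled by library size only (adjusted p up to 0.0709). In RYGB Chow vs. RYGB HFD it was 0.48 (0.14, adjusted p = 0.0614).

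*Insig1*, itself a target of SREBP2, passed in 0 comparisons. It stood at 193, 181, 249, 267 and 227 CPM in Sham Chow and 252.3, 252.1, 136, 130.5 and 222 in RYGB Chow. It stood at 139, 194, 222, 187 and 371 in Sham HFD and 299.7, 247, 246, 196 and 182 in RYGB HFD. All groups overlapped, and the highest mouse was Sham HFD replicate 5. The Sham HFD vs. RYGB HFD value was 0.07 (0.23, adjusted p = 0.864) and the interaction 0.24 (0.32, adjusted p = 0.72). *Insig2*, its paralog, stood at 266, 252.2, 289, 152 and 235 CPM in Sham Chow and 324, 294, 183, 257 and 362 in RYGB Chow. It stood at 176, 279, 286, 336 and 309 in Sham HFD and 117, 163, 244, 258 and 487 in RYGB HFD, which was its widest spread. Its lowest RYGB HFD mouse, replicate 1, was the highest of that group for 20 of the 28 genes. *Insig2* also passed in 0, with a Sham HFD vs. RYGB HFD value of -0.13 (0.28, adjusted p = 0.795). The proteases *Mbtps1* and *Mbtps2* passed in 0 as well, with 0.21 (0.08, adjusted p = 0.0831) and 0.21 (0.13, adjusted p = 0.296) there.

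*Stard4*, which moves cholesterol between membranes, stood at 127, 143, 169, 179 and 151 CPM in Sham Chow and 133, 175, 137, 135 and 116 in RYGB Chow. It stood at 104, 112, 119, 108 and 157 in Sham HFD and 209.8, 206, 195, 162 and 128 in RYGB HFD. The groups overlapped through Sham HFD replicate 5 and RYGB HFD replicate 5. It rose in Sham HFD vs. RYGB HFD (0.59, 0.14, adjusted p = 0.00667), also without any single mouse, while its interaction (0.73, 0.20, adjusted p = 0.0372) was called in 6 of 20 such fits (without Sham Chow replicate 1 or 2, RYGB Chow replicate 2, Sham HFD replicate 5 or RYGB HFD replicate 4 or 5) and not when scaled by library size only (adjusted p up to 0.0909). *Tmem97*, an endoplasmic reticulum protein tied to sterol movement, passed in 0 comparisons, with a Sham HFD vs. RYGB HFD value of 0.27 (0.14, adjusted p = 0.208).

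The plot of the diet difference in sham against RYGB mice sets the HFD over chow values of the sham mice beside those of the RYGB mice, comparisons which share no mice.

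**Figure D4:**
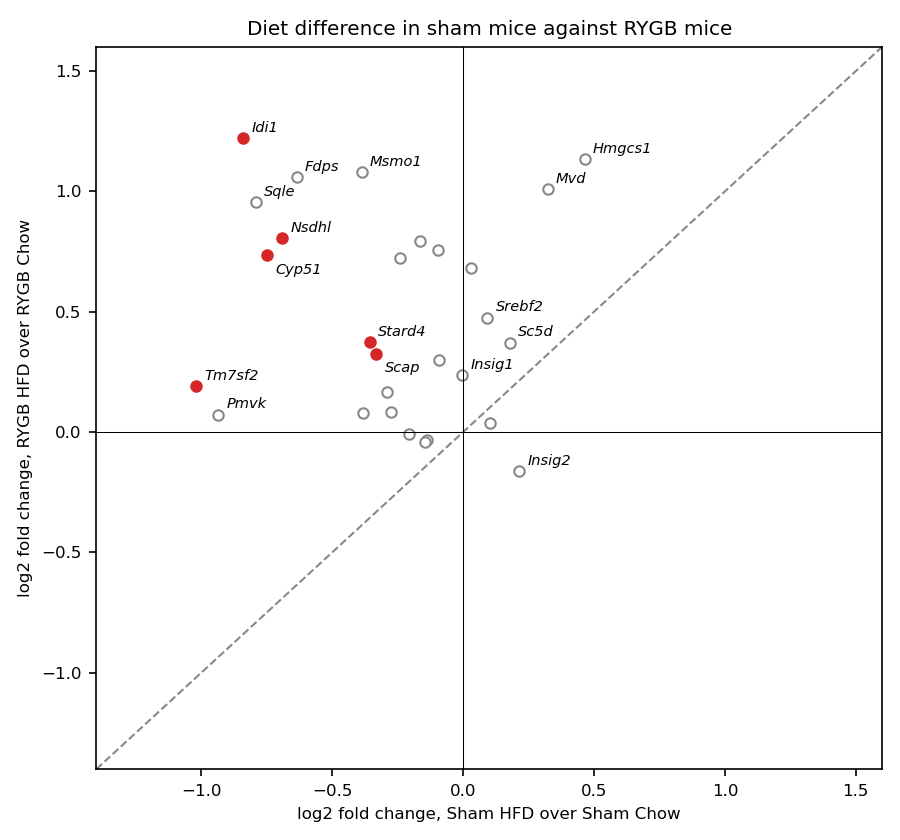
Each point is a gene, with the log2 fold change Sham HFD over Sham Chow on the x axis and RYGB HFD over RYGB Chow on the y axis. 26 of the 28 points lie above the dashed line of equal values, and the 6 filled points passed the interaction test.

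Neighboring pathways were counted from lists of symbols in the same fits. The counts of all 6 lists stand beside these shares of all tested genes. In Sham HFD vs. RYGB HFD 8.54% rose and 7.9% fell, and in Sham Chow vs. Sham HFD 10.9% rose and 10.7% fell. In RYGB Chow vs. RYGB HFD 1.99% rose and 1.65% fell, and in the interaction 2.48% were higher and 2.58% lower. Of 15 tested genes of the side branches that use mevalonate products (prenylation, dolichol, ubiquinone), 1 rose and 3 fell in Sham HFD vs. RYGB HFD, 2 fell in Sham Chow vs. Sham HFD and 0 passed in RYGB Chow vs. RYGB HFD. *Rabggtb*, a subunit of the enzyme that prenylates Rab proteins, rose in Sham HFD vs. RYGB HFD (0.60, 0.08, adjusted p = 2.85e-05). Of this list, only it passed the interaction (0.49). The list's median interaction was -0.08, against 0.66 over the 28 genes. Of 10 genes of SREBP regulation and sterol-dependent degradation, 1 rose and 2 fell in Sham HFD vs. RYGB HFD, 1 fell in Sham Chow vs. Sham HFD and 1 fell in RYGB Chow vs. RYGB HFD. The last was *Pgrmc1*, a heme-binding membrane protein that interacts with INSIG and cytochrome P450 enzymes (-0.45, 0.08, adjusted p = 0.00205).

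Of 9 genes of LXR and sterol efflux, 1 rose in Sham HFD vs. RYGB HFD, 1 rose in Sham Chow vs. Sham HFD and 0 passed in RYGB Chow vs. RYGB HFD, where *Abca1*, the efflux pump, was at 0.31 (0.12, adjusted p = 0.154). Of 15 genes of sterol esters and cholesterol movement within cells, 3 rose in Sham HFD vs. RYGB HFD, 3 rose in Sham Chow vs. Sham HFD and 1 rose in RYGB Chow vs. RYGB HFD. The last was *Scarb1*, the HDL receptor (0.62, 0.09, adjusted p = 5.16e-04). It was also the 1 gene of that list to pass the interaction (0.53).

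SREBP1 is the family member tied to fatty acid synthesis. Of 11 genes of SREBP1 and fatty acid synthesis, 1 rose and 2 fell in each comparison that ends in RYGB HFD, 1 rose and 1 fell in Sham Chow vs. Sham HFD, and 1 was lower in the interaction. In RYGB Chow vs. RYGB HFD, *Srebf1* rose (0.80, 0.21, adjusted p = 0.0342), while the desaturase *Scd1* (-1.48, 0.37, adjusted p = 0.0311) and the malic enzyme *Me1* (-1.64, 0.20, adjusted p = 6.49e-05) fell. The median interaction of the list was -0.19. Of 13 core clock and clock output genes, 1 rose in Sham HFD vs. RYGB HFD (*Nr1d1*, 0.42, 0.14, adjusted p = 0.0376) and 0 passed elsewhere. All 13 were above 0 in that comparison and in the interaction, with medians of 0.25 and 0.29. The time of day of collection was not analysed here, and the part of the clock genes in the results above was not tested. In Sham Chow vs. RYGB Chow, 0 genes of these 6 lists passed in edgeR.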

How the data were processed

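Liver RNA of 20 mice was sequenced, 1 poly-A selected library per mouse. The authors trimmed reads with Trimmomatic (0.36), aligned them to mm10 with HISAT2 (2.1.0) and deposited raw counts per Ensembl gene from featureCounts (1.5.0-p3). The annotation release, the strand setting and the handling of multi-mapping reads were not given in the sources used here. The counts were not normalized. Symbols, exons and positions came from GENCODE M21.

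Genes that reached 2 CPM in 3 mice or more entered edgeR (4.0.16, R 4.3.3), with quasi-likelihood tests on TMM-normalized counts in 1 model of all mice, two-sided, with Benjamini-Hochberg adjustment over all tested genes. The study's DESeq2 (1.42.0) served as an alternative, beside scaling by library size only or by RLE factors, limma-voom (limma 3.58.1), a stricter minimum of 5 CPM or none, models of only the 2 groups compared, the replicate number as a block, and leaving out each mouse. CPM per mouse are TMM-normalized, and log2(CPM + 0.5) was used for plots and permutation tests (a pseudocount of 0.1 as alternative). Python 3.11.15 with pandas 2.3.3, scipy 1.17.1 and matplotlib 3.10.9 made the tables and plots. Every mouse had 14604854 counts or more in total. Single genes had far fewer, with 41 to 310 reads per mouse for *Fdps* and 110 to 291 for *Mbtps2*. The spread of such genes therefore also holds counting noise. Counts are PCR reads without molecular identifiers. Simulated counts with 200 genes changed in RYGB HFD were used to check that the model ran as intended. They gave every gene the same spread and held no mouse that stood apart, so they do not show how the model performs on these data.

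The members, the neighboring lists and the markers were chosen with earlier results of these data known. Values per mouse are given for the 8 synthesis or sterol movement genes with the smallest p-value over all contrasts and for *Srebf2*, *Insig1*, *Insig2* and *Scap*. Of each neighboring list, counts and at most 3 genes were named, by their p-value in RYGB Chow vs. RYGB HFD. *Rabggtb* and *Nr1d1*, and the promoters of *Cyp51* and *Idi1*, were picked outside that rule after their values were seen. The labels name no sequencing batch, so no value within a batch was computed. Replicate numbers 1 to 5 recur in the groups and their meaning is not stated. Protein sequences were not used here.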

Additional observations from a re-analysis of the deposited data

Results flagged for a closer look

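In 9 of 112 groups of 5 mice (28 genes in 4 groups), the gap from the highest or lowest mouse to the nearest of the others, divided by the range of the group, was above Dixon's critical value for 5 samples. Chance gives about 1 in 20 for independent groups, but the genes were measured in the same mice, so the 9 cannot be read against that rate. In Sham HFD, 6 of these were replicate 5, with 32.5 CPM of *Mvd*, 73.8 of *Idi1*, 10.7 of *Fdps*, 59.6 of *Sqle*, 199.8 of *Msmo1* and 733 of *Sc5d*, each the highest of the group. RYGB HFD replicate 1 had 200.1 CPM of *Idi1*, against 114 to 128 in the other 4 mice. RYGB Chow replicate 3 had 49.8 CPM of *Tm7sf2*, against 131 to 162, and RYGB Chow replicate 5 had 72.1 of *Mbtps1*, against 82.9 to 87.2. The summed hepatocyte markers of Sham HFD replicate 5 were the highest of its group at 81053 CPM, and their part was not tested.

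The diet difference differed between RYGB and sham mice, by the interaction test in edgeR, for *Idi1* (2.06 on the log2 scale), *Nsdhl* (1.49), *Cyp51* (1.48), *Tm7sf2* (1.21), *Stard4* (0.73) and *Scap* (0.66).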

How the results depend on the processing

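Of 27 calls of a gene in a comparison, 16 held in all alternatives, 12 in all 20 fits without a mouse and 11 in both, and 0 changed direction. The count of genes that fell in Sham Chow vs. Sham HFD was 6, and 3 with library size only. The count that rose in RYGB Chow vs. RYGB HFD was 3, and it was 9 with DESeq2, 5 with library size only, 1 in a model of only the 2 groups and 1 with the replicate block. Over all tested genes, 245 rose there in the main fit, and 399, 199, 94 and 204 in these alternatives, in that order. The cause was not tested. Without a mouse in turn, the counts ran from 7 to 15 higher in Sham HFD vs. RYGB HFD, from 2 to 9 lower in Sham Chow vs. Sham HFD, from 0 to 6 higher in RYGB Chow vs. RYGB HFD, from 3 to 10 higher in the interaction and from 0 to 0 in Sham Chow vs. RYGB Chow.

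Mice with the same replicate number were not more alike in expression than mice with other numbers. Deviations of mice with the same number had a median correlation of -0.0112 over 30 pairs (range -0.257 to 0.16, 5 over 0.1). Over 120 pairs with other numbers the median was 0.00115, with 20 over 0.1. Whether the numbers mark a pairing in the design cannot be told from these correlations. With the replicate block, 10 genes rose in Sham HFD vs. RYGB HFD, 4 fell in Sham Chow vs. Sham HFD, 1 rose in RYGB Chow vs. RYGB HFD and 5 were higher in the interaction. The same counts over all tested genes were 999, 1254, 204 and 247, in that order, against 1050, 1319, 245 and 305 without the block. The calls that did not pass with it were *Mvk* and *Msmo1* in Sham HFD vs. RYGB HFD, *Idi1* and *Ebp* in Sham Chow vs. Sham HFD, *Hmgcs1* and *Scap* in RYGB Chow vs. RYGB HFD, and *Stard4* in the interaction (adjusted p from 0.0508 to 0.0662).

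With library size only, the median of all genes moved to -0.13 in the interaction, 0.12 in Sham Chow vs. Sham HFD and -0.08 in Sham HFD vs. RYGB HFD. Calls over all genes became 2279 higher and 554 lower in Sham Chow vs. Sham HFD (1337 and 1319 with TMM), 542 and 1497 in Sham HFD vs. RYGB HFD (1050 and 971), and 151 and 597 in the interaction (305 and 317). With 5 mice a group, genes that did not pass may still differ, and the p-values set a group difference against the spread between mice in the model.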
